A study of Homo sapiens with 4 samples.

Results

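KLF2, KLF3, KLF4, KLF5, KLF6, KLF7, KLF9, KLF10, KLF11 and KLF13, 10 genes of the Krüppel-like factor (KLF) family, were followed through 12 RNA sequencing libraries of 2 human cell lines. They were taken by symbol from the 26348 genes listed, and all 10 were found and passed the filter on low values. KLF proteins are transcription factors that bind GC-rich and CACCC-type elements through zinc fingers at their C-terminus, and the related SP proteins bind much the same elements. They differ in the N-terminal part, which recruits acetyltransferases in activators such as KLF2, KLF4, KLF5, KLF6 and KLF7, the corepressor CtBP in KLF3, and the SIN3A repressor complex in KLF9, KLF10, KLF11 and KLF13. Several of them are known as early-induced genes in cells that meet growth factors, shear stress or injury.

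The groups were A549 cells held for 2 h in a magnetic field, A549 cells with no field, 293T cells held for 2 h in the field, and 293T cells with no field, with 3 libraries each. A549 cells derive from a non-small cell lung carcinoma, and 293T is a human kidney epithelial line that carries the large T antigen of a polyomavirus. No source used here gives the strength or source of the field. No source says whether the libraries of a group were separate cultures, so p-values here measure library-to-library spread, which may be technical.

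The libraries held between 37171616 and 38883963 counts, recovered from the steps of the FPKM values (fragments scaled by gene length and by library total). Of 13 genes fixed as A549 markers, 12 reached 1 FPKM in A549, where their sum was 8403 to 8535 FPKM in exposed and 8022 to 8092 FPKM in control libraries. Of 8 alveolar type II markers, 6 were below 0.1 FPKM in A549 or not among the genes listed, the surfactant genes SFTPA2, SFTPC and SFTPD among them. The others were ABCA3, at 9.74 FPKM in exposed and 12.4 FPKM in control A549, and NAPSA, at 1.10 and 0.604 FPKM. Of 9 genes fixed as 293T markers, 6 reached 1 FPKM in 293T, and 6 of 8 kidney tubule markers were below 0.1 FPKM there or not among the genes listed. The other tubule markers were LRP2, at 1.22 FPKM in exposed and 1.20 FPKM in control 293T, and AQP1, at 0.184 and 0.284 FPKM. Exposed replicate 3 lay nearest to the controls on the first principal component in both lines, at 9.91 among the A549 libraries, where the controls lay between -14.93 and -14.01, and at 6.51 among the 293T libraries, where the controls lay between -13.34 and -11.72. Of 13811 genes tested with limma, 1837 were higher and 3711 lower in exposed A549, and 1897 were higher and 3346 lower in exposed 293T. This split moves with the scaling between libraries, since it was 2695 higher and 2525 lower in A549 after centring on the median and 2403 higher and 2620 lower in 293T after quantile normalization. In bulk RNA, fewer cells that express a gene and less of its RNA per cell cannot be told apart.

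The KLF genes changed differently with the field in the 2 lines. In exposed A549, KLF4, KLF9, KLF11 and KLF13 fell and KLF6 and KLF7 rose, so that 6 of 10 members passed the threshold where 40.2% of all genes did, 13.3% as higher and 26.9% as lower. In exposed 293T, 7 of 10 members rose, namely KLF2, KLF3, KLF6, KLF7, KLF10, KLF11 and KLF13, and none passed the threshold as lower, where 38.0% of all genes were called, 13.7% higher and 24.2% lower. A call here is a Benjamini-Hochberg adjusted p below 0.05 over all genes tested in limma on log2(FPKM + 1). The median log2 fold change of the members was -0.08 in A549, where that of all genes was -0.04, and 0.25 in 293T, where that of all genes was -0.03. All 10 members had a log2 fold change above 0 in 293T, so that none was lower there at any p, nor was any called lower by limma-voom on the recovered counts, while 5 were above and 5 below 0 in A549, where KLF2 and KLF3, at 0.01 each, were below 0 when libraries were scaled without mitochondrially encoded genes. The exposed and control libraries did not overlap for 5 members in A549, where 49.7% of all genes did not overlap, and for 8 members in 293T, where 50.0% of all genes did not.

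**Figure D1:**
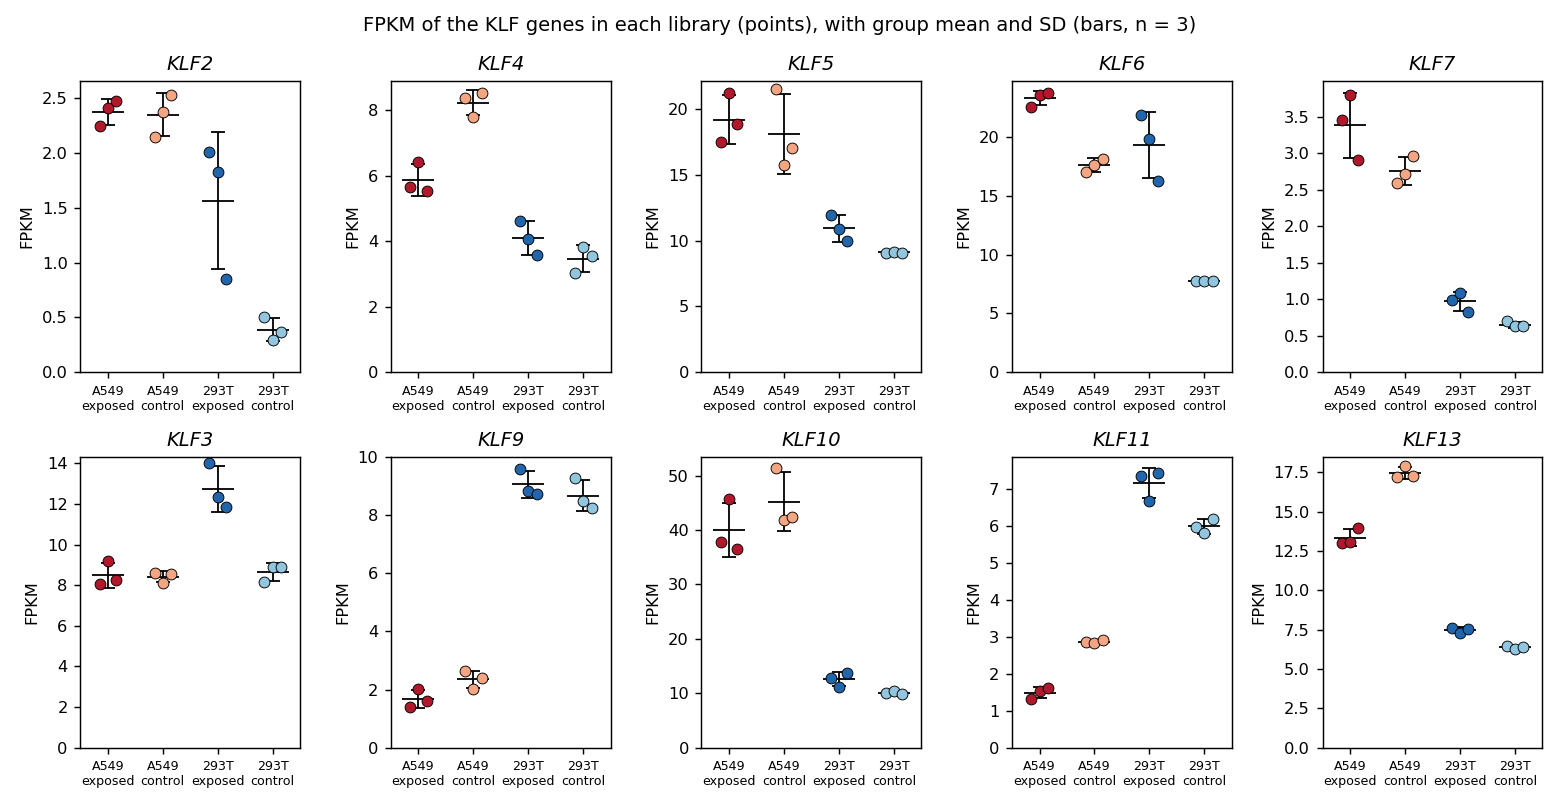
FPKM of the 10 KLF genes in every library (1 panel per gene, y axis in FPKM, points are libraries, bars are the mean and SD of 3 libraries), with exposed left of control in A549 and then in 293T. KLF6 stands higher in all exposed libraries of both lines, at 22.6 to 23.8 FPKM against 17.0 to 18.2 FPKM in A549 and at 16.3 to 21.8 FPKM against 7.71 to 7.79 FPKM in 293T, while KLF11 and KLF13 stand lower in exposed A549 and higher in exposed 293T.

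Among all members, KLF6 had the largest rise in each line on the log2(FPKM + 1) scale. KLF6, a regulator of growth arrest and of the response to tissue injury (chr10:3775996-3785209, GRCh38.p14), was at 22.6, 23.6 and 23.8 FPKM in exposed A549, against 17.0, 17.6 and 18.2 FPKM in control A549. In 293T it was at 21.8, 19.8 and 16.3 FPKM in exposed libraries, against 7.76, 7.79 and 7.71 FPKM in controls. The exposed libraries lay above all controls in both lines, and in 293T exposed replicate 3 was the lowest of its group while the controls were nearly equal. The means differed 1.32-fold in A549 (log2 fold change 0.39, SE 0.08, limma adjusted p = 0.00162) and 2.49-fold in 293T (log2 fold change 1.20, SE 0.08, adjusted p = 3.5e-06). Without exposed 293T replicate 3 the log2 fold change in 293T was 1.32. KLF6 made up 22.4% of the summed FPKM of the 10 members in exposed 293T and 12.7% in control 293T. It was the highest of the 10 in exposed 293T and the fifth in control 293T.

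KLF2, which restrains inflammatory genes in endothelium and keeps T cells quiescent (chr19:16324826-16328685), moved in 293T and not detectably in A549. In exposed 293T it was at 2.01, 1.83 and 0.850 FPKM, against 0.501, 0.293 and 0.362 FPKM in control 293T. These values rest on 93 to 211 counts per exposed library and 32 to 54 counts per control library, the fewest of any member. All exposed libraries lay above the controls, and exposed replicate 3 was below 1 FPKM while the others were near 2 FPKM. KLF2 rose 4.06-fold in 293T by the ratio of means, with a log2 fold change of 0.86 (SE 0.14, limma adjusted p = 6.86e-04), which the added 1 FPKM shrinks at such levels, since it was 1.72 with a pseudocount of 0.1 and 1.94 with limma-voom on the recovered counts. In A549 KLF2 was at 2.25, 2.41 and 2.47 FPKM in exposed libraries, against 2.14, 2.38 and 2.53 FPKM in controls. Here the ranges overlapped and the log2 fold change was 0.01 (95% confidence interval -0.29 to 0.32, adjusted p = 0.969), or -0.015 when libraries were scaled without mitochondrially encoded genes.

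KLF4, a factor of epithelial differentiation and of reprogramming to pluripotency (chr9:107484852-107489769), fell in exposed A549. It was at 5.65, 6.43 and 5.53 FPKM in exposed A549, against 8.36, 7.79 and 8.52 FPKM in control A549. No exposed library reached a control, and the mean was 1.40-fold lower (log2 fold change -0.43, SE 0.08, limma adjusted p = 0.00156). In 293T KLF4 was at 4.61, 4.07 and 3.59 FPKM in exposed libraries, against 3.01, 3.82 and 3.54 FPKM in controls. The ranges overlapped there, with a log2 fold change of 0.19 (95% confidence interval 0.01 to 0.37, adjusted p = 0.0914), which was 0.0280 without exposed replicate 3 and 0.0392 after quantile normalization.

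KLF5, which drives proliferation in basal epithelia (chr13:73054976-73077538), passed the threshold in neither line. It was at 17.5, 21.2 and 18.9 FPKM in exposed A549 and at 21.5, 15.8 and 17.1 FPKM in control A549, where control replicate 1 was above all exposed libraries. The log2 fold change in A549 was 0.09 (95% confidence interval -0.13 to 0.30, limma adjusted p = 0.530). In 293T it was at 11.996, 10.9 and 9.96 FPKM in exposed libraries and at 9.08, 9.15 and 9.10 FPKM in controls. These ranges did not overlap, yet the log2 fold change of 0.24 (95% confidence interval 0.02 to 0.45) had an adjusted p of 0.0772. It was 0.0434 after median centring, 0.0328 with 293T fitted alone, 0.0479 without exposed 293T replicate 3 and 0.0210 without control A549 replicate 1, a library that enters only through the shared variance.

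KLF7, best known from neuronal differentiation (chr2:207074137-207173851), rose in both lines. It was at 3.45, 3.80 and 2.91 FPKM in exposed A549, against 2.60, 2.72 and 2.97 FPKM in control A549, so that exposed replicate 3 lay within the range of the controls. In 293T it was at 0.988, 1.09 and 0.830 FPKM in exposed libraries, against 0.697, 0.628 and 0.626 FPKM in controls, with no overlap. The log2 fold change was 0.22 in A549 (SE 0.07, limma adjusted p = 0.0332) and 0.25 in 293T (SE 0.07, adjusted p = 0.0177), where the ratio of means was 1.49. The added 1 FPKM shrinks the 293T value, which was 0.51 with a pseudocount of 0.1 and 0.57 with limma-voom on the recovered counts. The A549 call was lost without exposed replicate 1 or 2 (adjusted p = 0.0913 and 0.140) and without control replicate 1 or 2 (0.104 and 0.0799). The 293T call was lost without exposed replicate 1 or 2 (adjusted p = 0.0513 and 0.0757) and without control replicate 2 or 3 (0.0531 and 0.0523). The small RNA genes MIR2355 and MIR7845 lie within KLF7, and no source used here says whether reads were assigned by strand.

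The promoter sequences of 8 members were found in RefSeq (GRCh38.p14), those of KLF3 and KLF10 were not, and the windows searched were the 250 bases before each of 13 annotated starts. Of these windows, 8 of 13 held a GC box (GGGCGG, found in 42.6% of 35116 promoters) and 6 of 13 held CACCC (54.7%), both elements that KLF proteins themselves bind. The AP-1 element TGANTCA, found in 6.57% of promoters, was in none of them. The windows of KLF2, KLF6 and KLF4 are shown because KLF2 and KLF6 had the largest rises in 293T and KLF4 fell in A549. Each is written 5′ to 3′ on the strand of the gene, and leaves out bases near the start that lie in an exon of the gene in the GENCODE annotation, whose transcripts can begin before the RefSeq start. Capitals mark a MEF2 site in KLF2, the CCAAT box in KLF6 and the CRE core TGACG in KLF4, in either orientation; all motifs were searched on both strands.
KLF2, chr19:16324576-16324816, plus strand: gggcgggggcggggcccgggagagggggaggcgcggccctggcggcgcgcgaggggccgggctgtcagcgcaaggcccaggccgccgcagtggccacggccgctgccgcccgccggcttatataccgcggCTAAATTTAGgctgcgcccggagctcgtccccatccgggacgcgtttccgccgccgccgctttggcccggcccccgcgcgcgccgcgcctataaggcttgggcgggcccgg
KLF6, chr10:3785282-3785459, minus strand: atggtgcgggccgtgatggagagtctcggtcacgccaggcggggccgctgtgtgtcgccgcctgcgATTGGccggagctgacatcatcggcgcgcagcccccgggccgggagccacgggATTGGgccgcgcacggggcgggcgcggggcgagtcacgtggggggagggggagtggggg
KLF4, chr9:107489770-107490019, minus strand: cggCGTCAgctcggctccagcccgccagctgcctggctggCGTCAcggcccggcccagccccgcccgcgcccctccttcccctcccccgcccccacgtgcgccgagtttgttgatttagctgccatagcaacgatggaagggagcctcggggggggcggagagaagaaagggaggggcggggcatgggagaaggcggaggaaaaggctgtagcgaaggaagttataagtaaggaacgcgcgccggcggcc
The MEF2 site of KLF2 lay 120 to 111 bases before the start, and such a site was found in 0.515% of all promoters. The 2 CCAAT boxes of KLF6 (CCAAT in 32.0% of promoters) lay 184 to 180 and 131 to 127 bases before the start, and the 2 CRE cores of KLF4 (TGACG in 21.2%) lay 247 to 243 and 210 to 206 bases before it. A match of letters is a description of the window and no measure of binding.

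KLF3, a repressor that acts through CtBP (chr4:38664199-38701517), rose in 293T. It was at 14.0, 12.3 and 11.9 FPKM in exposed 293T, against 8.14, 8.89 and 8.91 FPKM in control 293T. All exposed libraries lay above the controls, and the mean was 1.47-fold higher (log2 fold change 0.51, SE 0.06, limma adjusted p = 1.41e-04). In A549 it was at 8.04, 9.19 and 8.24 FPKM in exposed libraries, against 8.59, 8.10 and 8.54 FPKM in controls, and exposed replicate 1 was the lowest of all 6. The log2 fold change there was 0.01 (95% confidence interval -0.13 to 0.15, adjusted p = 0.935), and it was -0.025 when libraries were scaled without mitochondrially encoded genes. The antisense gene KLF3-AS1, which overlaps KLF3, was at most 0.134 FPKM in any library.

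The members that recruit SIN3A moved down in A549 for KLF9, KLF11 and KLF13 and up in 293T for KLF10, KLF11 and KLF13. These directions were not particular to them, since KLF4 also fell in A549 and KLF2, KLF3, KLF6 and KLF7 also rose in 293T. KLF11, a repressor known as an early gene of the TGF-beta response (chr2:10043550-10054836), had the largest fall of any member. It was at 1.31, 1.53 and 1.61 FPKM in exposed A549, against 2.85, 2.84 and 2.92 FPKM in control A549. In 293T it was at 7.35, 6.68 and 7.42 FPKM in exposed libraries, against 5.95, 5.81 and 6.19 FPKM in controls. The groups did not overlap in either line, but the exposed libraries were the low ones in A549 and the high ones in 293T. KLF11 was 1.93-fold lower in exposed A549 (log2 fold change -0.64, SE 0.05, limma adjusted p = 5.24e-06) and 1.19-fold higher in exposed 293T (log2 fold change 0.22, SE 0.05, adjusted p = 0.00671).

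KLF13, which activates the chemokine gene CCL5 late in T cell activation (chr15:31326835-31435665), moved in the same pair of directions. It was at 13.0, 13.1 and 14.0 FPKM in exposed A549, against 17.2, 17.9 and 17.3 FPKM in control A549. In 293T it was at 7.58, 7.28 and 7.57 FPKM in exposed libraries, against 6.44, 6.28 and 6.39 FPKM in controls. Every exposed library lay below all controls in A549 and above all controls in 293T. The mean was 1.31-fold lower in exposed A549 (log2 fold change -0.37, SE 0.04, limma adjusted p = 2.24e-05) and 1.17-fold higher in exposed 293T (log2 fold change 0.20, SE 0.04, adjusted p = 0.00143). KLF11 and KLF13 were the 2 of 10 members called lower in exposed A549 and higher in exposed 293T, a combination that 0.637% of all genes tested had, and 1.11% were called in opposite directions either way round. Of the genes that overlap KLF13, LOC105370939 was at most 0.0369 FPKM in any library.

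Windows before a start of KLF11 and of KLF13 are shown for these opposite changes, with the CRE core and the CCAAT box in capitals.
KLF11, chr2:10043971-10044174, plus strand: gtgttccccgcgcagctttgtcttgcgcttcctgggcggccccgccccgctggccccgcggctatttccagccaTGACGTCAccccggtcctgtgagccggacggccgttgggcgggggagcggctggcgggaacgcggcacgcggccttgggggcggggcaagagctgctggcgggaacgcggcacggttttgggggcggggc
KLF13, chr15:31326585-31326834, plus strand: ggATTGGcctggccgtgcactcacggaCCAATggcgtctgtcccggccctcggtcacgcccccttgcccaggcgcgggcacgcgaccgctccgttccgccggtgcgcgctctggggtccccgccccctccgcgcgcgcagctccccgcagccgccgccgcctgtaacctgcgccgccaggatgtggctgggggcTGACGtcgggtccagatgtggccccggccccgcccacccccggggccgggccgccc
In KLF11 a pair of CRE cores, 1 on each strand, overlapped each other 176 to 169 bases before the start, and a CACCC match overlapped their end. In KLF13 a CRE core lay 56 to 52 bases before the start and CCAAT boxes lay 248 to 244 and 223 to 219 bases before it. Of the members' 13 windows, 4 held a CRE core and 6 a CCAAT box.

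KLF9, a repressor induced by thyroid and glucocorticoid hormones (chr9:70384604-70414657), fell in exposed A549 and was nearly level in 293T. It was at 1.42, 2.02 and 1.60 FPKM in exposed A549, against 2.63, 2.03 and 2.39 FPKM in control A549, so that exposed replicate 2 lay just below control replicate 2. In 293T it was at 9.60, 8.84 and 8.74 FPKM in exposed libraries, against 9.29, 8.50 and 8.24 FPKM in controls, with overlapping ranges. The fall in A549 was 1.40-fold (log2 fold change -0.32, SE 0.08, limma adjusted p = 0.00891), and its adjusted p was 0.0502 when A549 was fitted alone. In 293T the log2 fold change was 0.06 (95% confidence interval -0.13 to 0.24, adjusted p = 0.644). The overlapping gene KLF9-DT was at most 0.0449 FPKM in any library.

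KLF10, another early gene of the TGF-beta response, which lies on chromosome 8, rose in exposed 293T. It was at 12.7, 11.2 and 13.7 FPKM in exposed 293T, against 10.03, 10.4 and 9.91 FPKM in control 293T. The groups did not overlap, and the mean was 1.24-fold higher (log2 fold change 0.28, SE 0.09, limma adjusted p = 0.0326). In A549 it was at 37.7, 45.7 and 36.6 FPKM in exposed libraries, against 51.4, 41.8 and 42.4 FPKM in controls. Exposed replicate 2 lay within the range of the controls, and the log2 fold change was -0.17 (95% confidence interval -0.38 to 0.03, adjusted p = 0.171), with an adjusted p of 0.0360 without that library. The 293T call was lost without exposed 293T replicate 1 or 3 (adjusted p = 0.0849 and 0.109), without control 293T replicate 1, 2 or 3 (0.0808, 0.0601 and 0.0834), and with limma-voom on the recovered counts (0.0593).

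**Figure D2:**
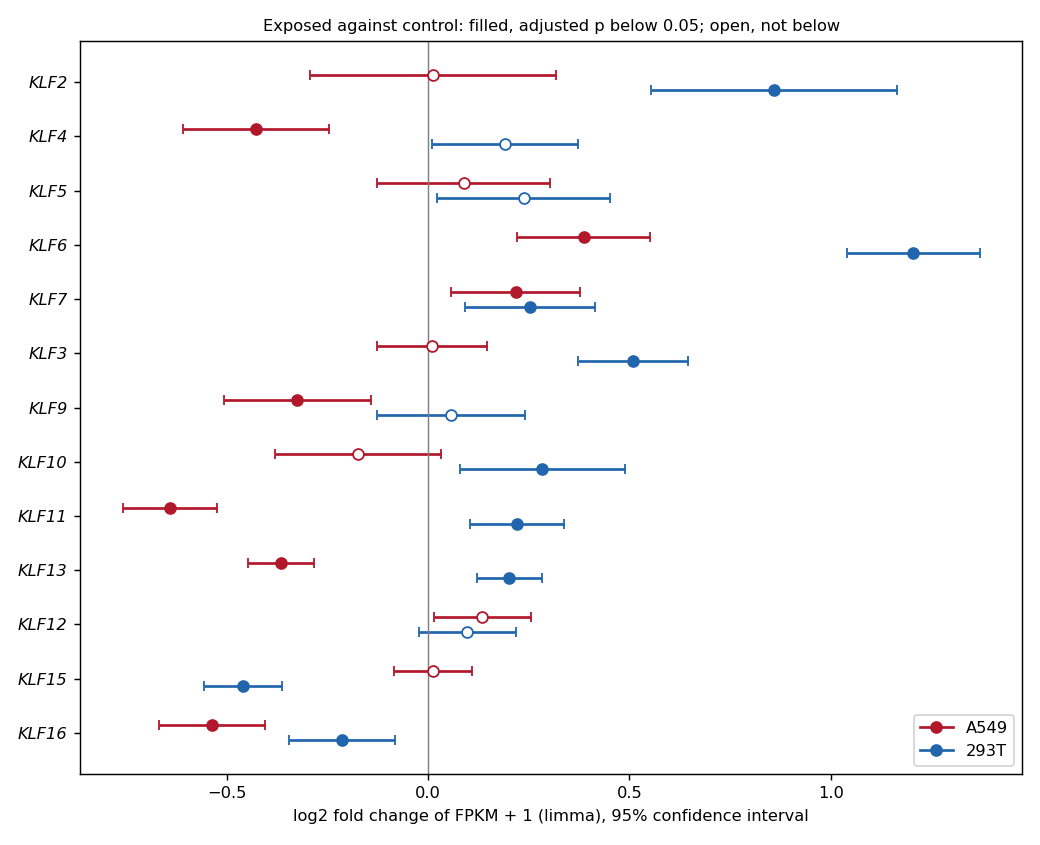
Log2 fold change of each KLF gene, exposed over control, on the log2(FPKM + 1) scale with its 95% confidence interval, in A549 and in 293T, with KLF12, KLF15 and KLF16 below the 10 members and filled points where the limma adjusted p was below 0.05. Among the 10 members the A549 points run between -0.64 for KLF11 and 0.39 for KLF6, and the 293T points between 0.06 for KLF9 and 1.20 for KLF6.

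The log2 fold change was lower in A549 than in 293T for all 10 members, and the difference itself passed the threshold for 7 of them, where 12.5% of all genes did, 7.03% as lower in A549 and 5.51% as higher. Over all genes, 761 differences were called higher in A549 and 971 lower, and 967 and 765 after centring on the median. The difference, A549 minus 293T, was -0.86 for KLF11 (SE 0.08, limma adjusted p = 1.03e-04), -0.85 for KLF2 (SE 0.20, adjusted p = 0.0169), -0.82 for KLF6 (SE 0.11, adjusted p = 8.61e-04) and -0.62 for KLF4 (SE 0.12, adjusted p = 0.00625). It was -0.57 for KLF13 (SE 0.05, adjusted p = 1.24e-04), -0.50 for KLF3 (SE 0.09, adjusted p = 0.00443) and -0.46 for KLF10 (SE 0.13, adjusted p = 0.0433). These 7 genes reached that difference along different paths, as KLF6 rose in both lines, KLF2, KLF3 and KLF10 passed the threshold in 293T alone, KLF4 in A549 alone, and KLF11 and KLF13 in opposite directions. The difference was -0.38 for KLF9 (95% confidence interval -0.64 to -0.12, adjusted p = 0.0560) and -0.15 for KLF5 (-0.45 to 0.15, adjusted p = 0.538). For KLF7 it was -0.04 (-0.26 to 0.19, adjusted p = 0.865), and 0.044 without exposed A549 replicate 3. The added 1 FPKM shrinks the KLF7 change in 293T. The KLF7 difference was -0.23 with a pseudocount of 0.1 (adjusted p = 0.425) and -0.28 with limma-voom (0.349). The median difference was -0.53 over the members and -0.01 over all genes. Among KLF genes outside the 10, the difference was 0.47 for KLF15 (limma adjusted p = 9.10e-04) and 0.04 for KLF12 (0.805). It was -0.32 for KLF16 (0.0288). KLF15 was at most 0.116 FPKM in A549, near the floor, so its difference rests on its fall in 293T. KLF16 had the direction of the 10 members, and KLF12 and KLF15 give no firm exception to it. The adjusted p of the difference was 0.239 for KLF15 with limma-voom and 0.0630 for KLF16 with no filter. The KLF16 call was also lost without exposed A549 replicate 1 or 2 (adjusted p = 0.0662 and 0.0615) or control A549 replicate 2 or 3 (0.0567 and 0.0661). It was lost without exposed 293T replicate 1 or 3 (0.0627 and 0.0501) or control 293T replicate 2 or 3 (0.0739 and 0.0704) as well. The KLF2 call was lost with no filter on low values (adjusted p = 0.0555), while leaving out A549 exposed replicate 2 or control replicate 2 brought KLF9 past the threshold (adjusted p = 0.0181 and 0.0326), as did limma-voom on the recovered counts (-0.56, adjusted p = 0.0307). The KLF10 call was lost in 15 of 22 alternatives that keep the threshold, among them leaving out replicate 1 or 3 of exposed A549 (0.0958 and 0.0874), of control A549 (0.0822 and 0.0545) and of exposed 293T (0.0828 and 0.0789), and replicate 1, 2 or 3 of control 293T (0.0848, 0.0740 and 0.0873).

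**Figure D3:**
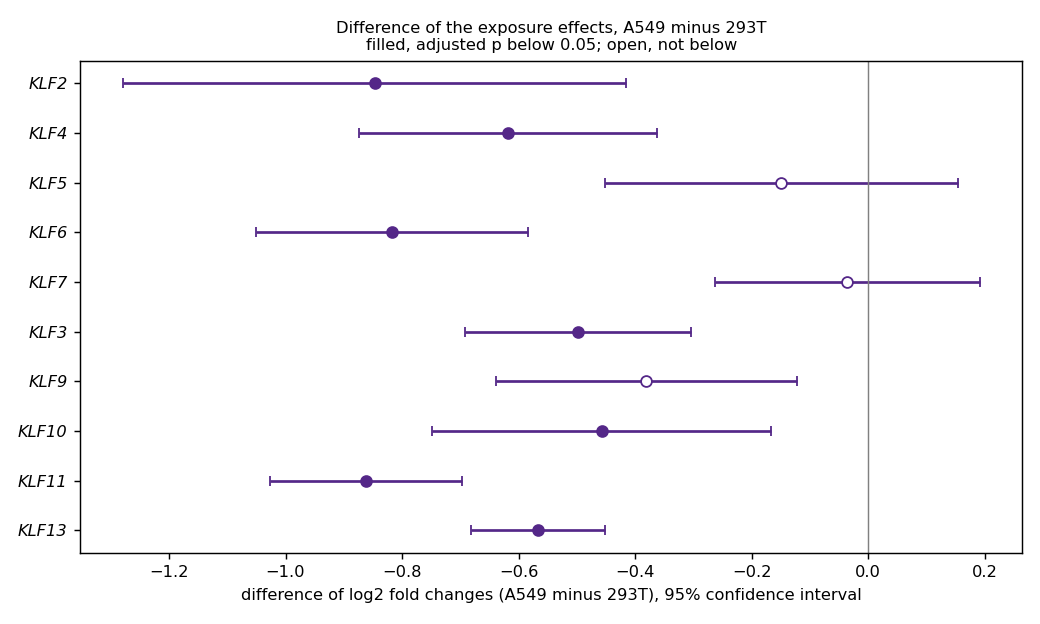
Difference of the log2 fold changes (A549 minus 293T) of each KLF gene with its 95% confidence interval, filled where the limma adjusted p was below 0.05. All 10 points lie below 0, and the intervals of KLF5 and KLF7 include 0.

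Without the field, the lines already differed in most of these genes, as measured in the same control libraries that enter the comparisons above. KLF2, KLF4, KLF5, KLF6, KLF7, KLF10 and KLF13 were higher in A549 controls and KLF9 and KLF11 were lower, so that 9 of 10 passed the threshold where 88.3% of all genes did, 32.4% as higher and 55.9% as lower in A549. Libraries of the 2 control groups did not overlap for the same 9, where 89.6% of all genes did not overlap. The ratio of means, A549 over 293T, was 6.10 for KLF2, 4.48 for KLF10, 4.25 for KLF7, 2.74 for KLF13, 2.38 for KLF4, 2.27 for KLF6 and 1.99 for KLF5. KLF9 was 3.69-fold lower and KLF11 2.08-fold lower in A549 controls. KLF3 was at 8.41 ± 0.270 FPKM in A549 controls and 8.64 ± 0.438 FPKM in 293T controls (SD, n = 3 each), with a log2 difference of -0.03 (95% confidence interval -0.17 to 0.10, limma adjusted p = 0.610), which was 0.081 after quantile normalization and -0.16 on the TPM scale (adjusted p = 0.0452). The median over all genes was -0.25, and it moved to -0.15 after quantile normalization and to -0.41 on the TPM scale, while that of the members was 1.07.

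The members were also ordered by their mean level within each group. In exposed A549, KLF10 was highest at 40.0 ± 4.996 FPKM, followed by KLF6 at 23.3 ± 0.633 FPKM and KLF5 at 19.2 ± 1.86 FPKM (SD, n = 3), and KLF9 and KLF11, the lowest, had overlapping ranges. In control A549, KLF10 was highest at 45.2 ± 5.36 FPKM, and KLF5 at 18.1 ± 3.03 FPKM, KLF6 at 17.6 ± 0.583 FPKM and KLF13 at 17.5 ± 0.376 FPKM were neighbours with overlapping ranges. In exposed 293T, KLF6 was highest at 19.3 ± 2.82 FPKM, above KLF3 at 12.7 ± 1.13 FPKM and KLF10 at 12.6 ± 1.28 FPKM, whose ranges overlapped. In control 293T, KLF10 led at 10.1 ± 0.231 FPKM, and KLF6 at 7.75 ± 0.0407 FPKM came after KLF5, KLF9 and KLF3. KLF2 was lowest in control 293T at 0.385 ± 0.106 FPKM, below KLF7 at 0.650 ± 0.0404 FPKM, while in exposed 293T KLF2 at 1.56 ± 0.626 FPKM and KLF7 at 0.970 ± 0.132 FPKM overlapped. The 10 members summed to 119 ± 8.60 FPKM in exposed A549 and 125 ± 7.99 FPKM in control A549, whose ranges overlapped, and to 85.9 ± 6.17 FPKM in exposed 293T and 61.1 ± 0.333 FPKM in control 293T, whose ranges did not.

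**Figure D4:**
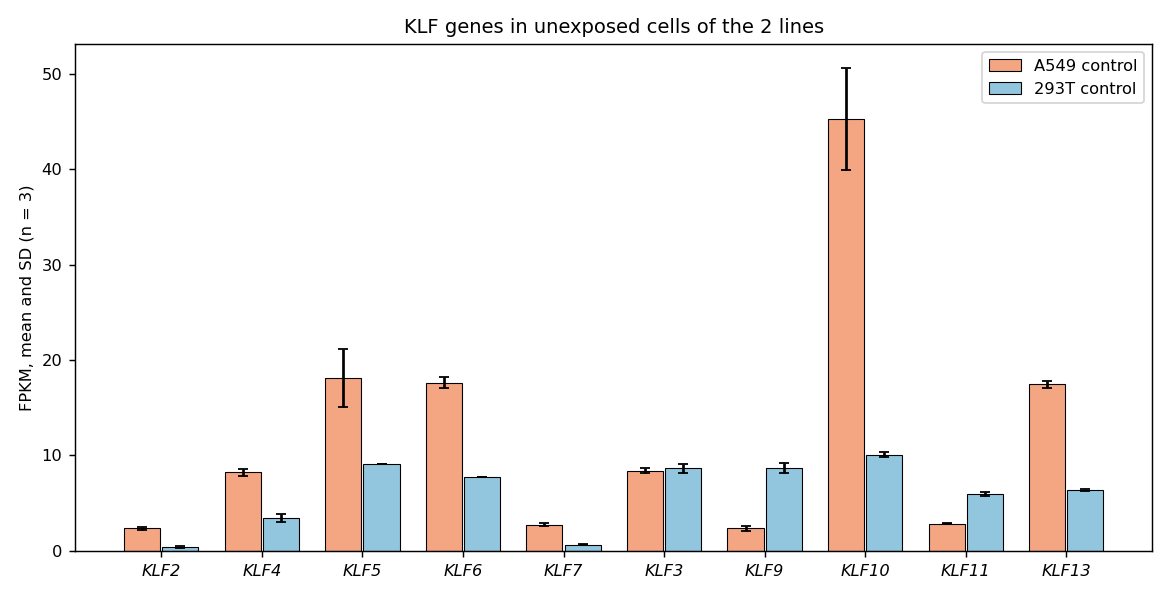
Mean FPKM of the 10 KLF members in A549 controls and 293T controls (bars from 0, error bars are the SD of 3 libraries). KLF10 at 45.2 FPKM in A549 and 10.1 FPKM in 293T is the highest of the 10 in each line. KLF9 and KLF11 passed the threshold as lower in A549, and KLF3 is nearly level, at 8.41 FPKM in A549 and 8.64 FPKM in 293T.

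The other KLF genes, outside the 10, behaved in their own ways. KLF16, a further SIN3A-recruiting repressor, was at 7.76, 7.87 and 8.46 FPKM in exposed A549, against 11.7, 12.2 and 12.3 FPKM in control A549, and fell 1.51-fold (log2 fold change -0.54, SE 0.06, limma adjusted p = 4.25e-05). In 293T KLF16 was at 11.0, 9.95 and 11.1 FPKM in exposed libraries, against 13.9, 12.03 and 11.8 FPKM in controls, and was 1.18-fold lower (log2 fold change -0.21, SE 0.06, adjusted p = 0.0151), a call lost without exposed replicate 2 (adjusted p = 0.0698) or control replicate 1 (0.0641). KLF15, a metabolic regulator, was at 1.61, 1.54 and 1.65 FPKM in exposed 293T, against 2.68, 2.65 and 2.41 FPKM in control 293T, and fell 1.61-fold (log2 fold change -0.46, SE 0.04, adjusted p = 4e-05). In A549 KLF15 was at most 0.116 FPKM. KLF12, a CtBP-binding repressor, had a log2 fold change of 0.13 in A549 (adjusted p = 0.0723) and 0.10 in 293T (adjusted p = 0.190). The A549 value was 0.24 with a pseudocount of 0.1 (adjusted p = 0.0346), 0.20 after quantile normalization (0.00875), 0.19 after median centring (0.0145) and on the TPM scale (0.0475), and 0.17 without control A549 replicate 1 (0.0459). KLF1, KLF8, KLF14, KLF17 and KLF18 were below 0.5 FPKM in every library and were not tested, and KLF8 had the highest single value of these, 0.460 FPKM in a 293T control.

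Related proteins and partners were counted from lists chosen for this family. Each count below stands beside 13.3% higher and 26.9% lower over all genes in exposed A549, and 13.7% higher and 24.2% lower in exposed 293T, and nothing is particular to a list by its count alone. In the list of SP factors, the closest relatives of the KLF genes, 6 of 9 were tested, of which 2 were lower in exposed A549 and 2 were higher in exposed 293T, and the others did not pass the threshold. SP1, the general activator at GC boxes, had a log2 fold change of -0.15 in A549 and 0.18 in 293T, and its difference of -0.33 passed the threshold (SE 0.05, limma adjusted p = 0.00169). SP9, a regulator of limb and forebrain development, fell in A549 (-0.55), and SP4, a factor of neurons, rose in 293T (0.33). Of 16 genes of the SIN3 complex, 2 were higher and 5 lower in exposed A549, and 4 were higher and 3 lower in exposed 293T, where 40.2% of all genes were called in A549 and 38.0% in 293T. SIN3A, the scaffold that KLF9, KLF10, KLF11 and KLF13 bind, was at 9.25 FPKM in exposed A549 against 16.8 FPKM in control A549, and at 16.0 FPKM in exposed 293T against 20.1 FPKM in control 293T. Its log2 fold change was -0.80 in A549 (SE 0.07, adjusted p = 5.38e-06) and -0.31 in 293T (SE 0.07, adjusted p = 0.00355). SAP130 fell in both lines (-0.56 in A549 and -0.23 in 293T) and SAP30L rose in both (0.31 and 0.38), each a subunit of that complex, and the SAP130 call in 293T was lost without control 293T replicate 1 (adjusted p = 0.0560). ING2 (-0.36) and ARID4A (-0.26) fell in A549, and ARID4B (0.25) rose in 293T. ING1 rose in both lines (0.16 in A549 and 0.27 in 293T), but its A549 call was lost in 8 of 23 alternatives (limma adjusted p up to 0.140).

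The CtBP list, 8 genes with 1 higher and 4 lower in each line, held the partners of KLF3. Its called histone methyltransferases and demethylase fell in both lines, with log2 fold changes in A549 and 293T of -0.25 and -0.27 for EHMT1, -0.29 and -0.12 for EHMT2, and -0.19 and -0.18 for KDM1A. FHL3, a LIM protein that binds KLF3, had -0.28 in A549 and -0.22 in 293T, and RCOR1 rose in 293T (0.17). The 293T calls were lost in 6 of 23 alternatives for EHMT2 (adjusted p up to 0.0924) and 7 of 23 for FHL3 (up to 0.111), and the A549 call of FHL3 in 1 (0.0520). Of 6 coactivators, 3 were higher in each line and the others did not pass the threshold. The acetyltransferase CREBBP rose in both (0.35 in A549 and 0.21 in 293T), as did the Mediator subunit MED14 (0.16 and 0.12), while KAT2A rose in A549 (0.26). PARP1 had 0.10 in 293T, and -0.018 there after quantile normalization. Of 10 ubiquitin ligases reported to act on KLF proteins, 1 was higher and 4 lower in exposed A549, and 2 were higher and 4 lower in exposed 293T. WWP1, which ubiquitinates KLF2 and KLF5, fell in both lines (-0.34 in A549 and -0.19 in 293T), as did FBXO32 (-0.28 and -0.21), STUB1 (-0.15 and -0.17) and SMURF1 (-0.17 and -0.15), while SMURF2 rose in both (0.20 and 0.33). The 293T calls were lost in 5 of 23 alternatives for WWP1 (adjusted p up to 0.0944), 3 for FBXO32 (0.0737) and 5 for SMURF1 (0.0754), and the A549 calls of STUB1 (0.0776) and SMURF1 (0.0582) in 1 each, median centring.

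Genes upstream of KLF2, the ERK5 kinase cascade and its MEF2 targets, were tested for 7 of 8 entries, with 1 higher and 2 lower in exposed A549 and 1 higher and 1 lower in exposed 293T. MAPK7, which encodes ERK5, fell in A549 (-0.38), as did the upstream kinase gene MAP3K3 (-0.44), and MAP3K2 rose in 293T (0.37). MEF2D rose in A549 (0.15), a call lost in 3 of 23 alternatives (adjusted p up to 0.0768), and MEF2C fell in 293T (-0.24). Of 10 genes of TGF-beta and SMAD signalling, the pathway that induces KLF10 and KLF11, 4 were higher and 3 lower in exposed A549, and 6 were higher and 1 lower in exposed 293T. The ligand gene TGFB1 fell in both lines (-0.31 in A549 and -0.29 in 293T) and the inhibitor SMAD7 rose in both (0.45 and 0.45). TGFBR1 fell in A549 (-0.42), where SMAD2 rose (0.23), and the SMAD repressor SKI (0.18) rose in 293T. SMAD4 rose in both lines (0.16 in A549 and 0.27 in 293T), but its A549 call was lost in 11 of 23 alternatives (limma adjusted p up to 0.148). Among 8 pluripotency partners of KLF4, 6 were tested, with 2 higher and 1 lower in exposed A549 and 1 higher and 2 lower in exposed 293T. MYC was at 45.8 FPKM in exposed A549 against 26.3 FPKM in control A549, and at 15.7 FPKM in exposed 293T against 23.6 FPKM in control 293T, with log2 fold changes of 0.78 and -0.56. LIN28B fell in both lines (-0.27 and -0.16) and TBX3 rose in both (0.61 and 0.32), but the 293T calls were lost in 6 of 23 alternatives for LIN28B (adjusted p up to 0.115) and 15 of 23 for TBX3 (up to 0.120).

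Of 33 genes reported in the literature as direct or indirect KLF targets, 27 were tested, with 6 higher and 8 lower in exposed A549, where 40.2% of all genes were called, and 8 higher and 4 lower in exposed 293T, where 38.0% were. ATF3, a stress-induced transcription factor, was at 39.3 FPKM in exposed 293T against 13.0 FPKM in control 293T (log2 fold change 1.50, SE 0.15, limma adjusted p = 4.91e-05). CDKN1A, the cell cycle inhibitor p21, which KLF4 and KLF6 activate, was at 24.1 FPKM in exposed 293T against 14.0 FPKM in control 293T (0.74, SE 0.05, adjusted p = 5.19e-06). In A549, where KLF6 also rose, CDKN1A had a log2 fold change of 0.09. Its difference between the lines was -0.65 (limma adjusted p = 3.21e-04). TXNIP fell in A549 (-0.22) and rose in 293T (0.34), and CCND1 fell in 293T (-0.30). In A549 THBD, the thrombomodulin gene that KLF2 activates in endothelium, rose (0.59), as did CCNB1 (0.29), while KRT19 (-0.31) fell. The A549 calls were lost in 2 of 23 alternatives for TXNIP (adjusted p up to 0.0776) and in 1 for KRT19, a pseudocount of 0.1 (0.0874). The median log2 fold change of the list was 0.01 in A549 and 0.00091 in 293T, where those of all genes were -0.04 and -0.03.

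The genes whose pattern over the 12 libraries lay nearest to KLF6, KLF2 and KLF11, the members with the largest summed size of both log2 fold changes, were found by the root mean square difference of log2(FPKM + 1) centred on the mean of each line, among 11526 genes. Nearest to KLF6 were ZBED6 (0.130 log2 units) and HOXB4 (0.161), a zinc finger gene and a homeobox gene. ZBED6 lies within ZC3H11A, so its reads are uncertain. Nearest to KLF2 were DERL3 (0.123), which acts in the degradation of endoplasmic reticulum proteins, and CDKN1A (0.129). Nearest to KLF11 were the corepressor gene BCORL1 (0.0457) and PIK3R1 (0.0738), a regulatory subunit of phosphoinositide 3-kinase. BCORL1 had a log2 fold change of -0.65 in A549 and 0.20 in 293T, and KLF11 had -0.64 and 0.22. BCORL1 was picked for its nearness over these same libraries, so this likeness follows from the rule and is no separate result.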

How the data were processed

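RNA sequencing values of 12 libraries in 4 groups were used. Per the labels' protocols, libraries were made from mRNA captured by oligo(dT) and reverse transcribed with random primers. The submitters' processing notes name fastp, HISAT2, HTSeq and GRCh38, and no source used here gives their settings. The deposited values are FPKM, which the authors scaled by gene length and library total, so a change in very abundant transcripts moves all others. Whole counts could be recovered for 100% of genes within a tolerance of 0.01, and served for depth and for limma-voom, an alternative. Total counts per library were 37171616 to 38883963, the highest 1.05 times the lowest, and mitochondrially encoded genes took 4.37% to 9.28% of them.

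A filter of 0.5 FPKM in 3 or more libraries retained 13811 genes and removed 12537. Group means of log2(FPKM + 1) were estimated from all 12 libraries by limma 3.58.1 under R 4.3.3, without covariates, with a variance moderated along mean expression and 8 residual degrees of freedom among libraries. Contrasts compared exposed with control cells per line, the lines' effects with each other, and A549 controls with 293T controls. Tests were two-sided, and each adjusted p is Benjamini-Hochberg over every gene tested, called below 0.05. A fold on this log2 scale understates the change of low genes; ratios given as fold are of mean FPKM. Tables were built with Python 3.11.15, pandas 2.3.3 and numpy 2.4.6, and the fit was tested on simulated data. Of the listed identifiers 25419 matched RefSeq GRCh38.p14, which gave coordinates and promoters.

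The members, the gene lists and the rule for naming genes were chosen with earlier results of these data known. From each list, up to 4 genes per line with the smallest adjusted p past the threshold are named; 1 gene picked by this rule is not reported here. Nearest patterns are the 2 closest genes to each of the 3 members with the largest summed size of log2 fold changes, among genes with a mean of at least 1 FPKM. Alternatives were a pseudocount of 0.1, 2 other filters, quantile normalization, median centring, TPM, a common sum without mitochondrially encoded genes, no variance trend, each line alone, the replicate number as a block, limma-voom, a minimum log2 fold change of 1, and omission of each library in turn. No per-sample column was left out.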

Additional observations from a re-analysis of the deposited data

Results flagged for a closer look

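For 7 KLF genes the change with the field differed between the lines by the test of the difference itself (A549 minus 293T, limma on log2(FPKM + 1), Benjamini-Hochberg adjusted p below 0.05). The difference was -0.86 for KLF11 and -0.57 for KLF13, which fell in exposed A549 and rose in exposed 293T. It was -0.82 for KLF6, which rose in both lines. It was -0.85 for KLF2, -0.50 for KLF3 and -0.46 for KLF10, which rose in exposed 293T and did not pass the threshold in A549, and -0.62 for KLF4, which fell in exposed A549 and did not pass it in 293T. Exposed 293T replicate 3 was the exposed library nearest to its controls. Without it, the difference was -1.07 for KLF2, -0.93 for KLF6, -0.69 for KLF4 and -0.54 for KLF3. It was then -0.84 for KLF11, -0.56 for KLF13 and -0.39 for KLF10, whose call was lost (limma adjusted p = 0.0789). The KLF10 call was lost in 15 of 22 alternatives.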

How the results depend on the processing

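Of 40 member results (10 genes in 4 comparisons) 29 were called, and 23 of these were called under every alternative run other than the minimum log2 fold change; the other 6 were KLF7 and KLF9 in A549, KLF7 and KLF10 in 293T, and the differences of KLF2 and KLF10. Of 92 results for genes named from the lists, chosen for these alternatives after the data were seen, 64 were called under every one of these, the minimum log2 fold change again left out. Members higher in exposed A549, 2 in all, came to 1 with a pseudocount of 0.1, no filter, a common sum without mitochondrially encoded genes or each line alone, because KLF7 was lost. A log2 fold change of at least 1 left 0 members higher and 0 lower in exposed A549, 1 higher in exposed 293T (KLF6) and 0 for the difference. Leaving out 1 library gave 1 to 2 members higher and 4 to 5 lower in exposed A549, 5 to 8 higher in exposed 293T, 6 to 8 for the difference and 9 for the controls.

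With the replicate number as a block, 1 member was higher and 4 were lower in exposed A549, 6 were higher in exposed 293T and 6 differed between the lines. Deviations from the group means were correlated between exposed and control libraries with the same number in each line. Correlations were -0.141 to 0.000139, and 0 of 6 matched best with their own number. With 3 libraries per group and the lines not compared, this check cannot exclude a pairing by number.

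Signs reversed for values near 0. With a common sum without mitochondrially encoded genes, KLF2 in A549 was -0.015 and KLF3 in A549 -0.025. For the controls, quantile normalization gave 0.081 for KLF3 and 0.068 for KLF16, and median centring gave 0.058 and 0.044. PARP1 in 293T was -0.018 after quantile normalization. The cause was not tested. Leaving out 1 library, the log2 fold change in A549 lay between -0.033 and 0.051 for KLF2, -0.042 and 0.044 for KLF3, -0.0012 and 0.21 for KLF5, and -0.0061 and 0.029 for KLF15; the difference lay between -0.10 and 0.044 for KLF7 and -0.0073 and 0.085 for KLF12, and KLF16 in the controls between -0.089 and 0.020. With a pseudocount of 0.1 or limma-voom, low genes moved most, KLF7 in 293T to 0.51 and 0.57 and the KLF2 difference to -1.70 and -1.92, and limma-voom gave KLF9 in A549 -0.49. The KLF15 difference of 0.47 had an adjusted p of 0.239 with limma-voom. Depth limits KLF2 in control 293T, at 32 to 54 counts per library.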
